A study of Mus musculus with 12 samples.

Results

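Transcripts of 51 collagen and collagen-processing genes were followed in the ventricles of 12 mice, out of 14957 genes with a count. They were taken by symbol: 33 collagen chains, the prolyl hydroxylases of the P4ha and P3h families, the lysyl hydroxylases of the Plod family, the lysyl oxidases, the collagen chaperone Serpinh1, the C-proteinase Bmp1 and its enhancers Pcolce and Pcolce2. The chains comprised 8 fibrillar, 8 basement membrane and 17 other collagens. The enzyme class comprised 9 genes of the hydroxylase families, 5 oxidases, 1 chaperone and 3 genes of C-propeptide removal. Another 12 genes of these families were not analysed here. A filter on low counts kept 49 of the 51 for testing and removed Loxl4 and Col25a1.

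All 12 animals were wild-type C57Bl/6J mice, with 4 in each of 3 groups. The Sham-NT group had a sham operation and an injection of PBS, so it carried no vector. The TAC-mScarlet group had transverse aortic constriction (TAC), a narrowing of the aorta that loads the left ventricle, and received AAV9-MHCK7-mScarlet, which drives a red fluorescent protein from the muscle promoter MHCK7. The TAC-BacNav group had the same constriction and received AAV9-MHCK7-BacNav-mScarlet, which adds BacNav, a bacterial voltage-gated sodium channel. No group had constriction without a vector, so the effects of constriction and of vector cannot be told apart in a comparison with Sham-NT. For age, sex, vector dose and time after surgery, nothing is stated in the sources used here.

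Collagens are built from chains that wind into triple helices inside the endoplasmic reticulum. Prolyl 4-hydroxylases stabilise the helix, prolyl 3-hydroxylases and lysyl hydroxylases modify further residues, and Serpinh1 (HSP47) holds the folded helix until export. After secretion Bmp1 removes the C-propeptide, helped by the Pcolce enhancers, fibrillar collagens assemble into fibrils, and lysyl oxidases cross-link them. In the heart, collagens I and III form most of the interstitial fibres and are made mainly by fibroblasts, whereas collagen IV lies in the basement membranes of cardiomyocytes and capillaries. Growth of the fibrillar network is known as fibrosis and accompanies chronic pressure overload.

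Start regions of the genes whose transcripts moved together are shown first, because the 2 chains of collagen VIII rose together and because the chaperone Serpinh1 and the hydroxylase P4ha1 shared a pattern across mice. Each run gives the 250 bases before the RefSeq start on GRCm38.p6, 5′ to 3′ on the strand of the gene, and capitals mark matches, on either strand, to 5 short motifs. They are the TATA box written as TATAAA, the CCAAT box, the GC box that binds Sp1 proteins written as GGGCGG, the Smad motif written as CAGAC, and the ACGTG core of hypoxia response elements. Matches that overlap form 1 run of capitals. Col8a1 lies on the minus strand at chr16:57754738-57754987, Col8a2 on the plus strand at chr4:126286544-126286793, Serpinh1 on the minus strand at chr7:99353240-99353489 and P4ha1 on the plus strand at chr10:59323046-59323295.
Col8a1: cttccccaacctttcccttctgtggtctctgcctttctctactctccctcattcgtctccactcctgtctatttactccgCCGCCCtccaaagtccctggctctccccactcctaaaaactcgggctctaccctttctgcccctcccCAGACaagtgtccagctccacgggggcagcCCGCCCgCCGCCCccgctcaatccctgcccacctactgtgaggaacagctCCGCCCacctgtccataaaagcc
Col8a2: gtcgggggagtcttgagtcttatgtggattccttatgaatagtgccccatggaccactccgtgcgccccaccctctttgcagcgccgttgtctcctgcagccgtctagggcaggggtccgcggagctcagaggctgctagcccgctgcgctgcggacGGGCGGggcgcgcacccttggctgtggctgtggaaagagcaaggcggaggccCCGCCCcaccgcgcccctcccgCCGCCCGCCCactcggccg
Serpinh1: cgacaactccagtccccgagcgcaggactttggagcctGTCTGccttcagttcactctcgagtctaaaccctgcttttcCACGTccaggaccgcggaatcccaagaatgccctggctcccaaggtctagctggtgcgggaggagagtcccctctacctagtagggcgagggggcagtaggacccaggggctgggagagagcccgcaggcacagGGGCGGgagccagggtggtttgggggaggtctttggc
P4ha1: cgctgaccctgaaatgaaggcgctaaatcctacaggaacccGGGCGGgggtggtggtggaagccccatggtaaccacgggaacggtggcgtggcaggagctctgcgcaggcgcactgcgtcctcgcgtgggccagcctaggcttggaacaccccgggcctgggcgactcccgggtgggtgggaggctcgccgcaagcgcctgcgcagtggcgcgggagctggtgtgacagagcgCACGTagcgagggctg
Both collagen VIII windows held 4 matches to the GC box, and neither held a TATA box, a CCAAT box or the hypoxia core. Serpinh1 and P4ha1 each held 1 GC box and 1 hypoxia core, and Col8a1 and Serpinh1 each held 1 Smad motif. Among 32851 RefSeq promoter windows of the same length, the GC box was found in 32.7%, the Smad motif in 42.2%, the hypoxia core in 16.6%, the CCAAT box in 33.8% and the TATA box in 12.4%. Entries were matched for 37 of the 51 genes, with 40 windows, of which 67.5% held the GC box, 42.5% the Smad motif, 25% the hypoxia core, 30% the CCAAT box and 10% the TATA box. Member windows had a median GC content of 60.6% against 52.4% in all windows, and a match is a string of letters, not a measured binding site.

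The main collagen IV genes are shown because they start on opposite strands of the same stretch. Col4a1 (minus strand) and Col4a2 (plus strand) overlap by the 22 annotated bases at chr8:11312805-11312826, printed from the plus strand with a match to GGGCGG in capitals.
Col4a1/Col4a2: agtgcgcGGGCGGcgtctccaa
Col4a4 and Col4a3 also point away from each other, with 71 bases between their annotated starts. Col4a6 and Col4a5 on the X chromosome do so across 1308 bases. Col3a1 and Col5a2 are neighbours that run towards each other, with 24614 bases between their ends.

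Total counts ran from 5360869 to 7837342 in Sham-NT, 8275608 to 9813733 in TAC-mScarlet and 7361063 to 11497836 in TAC-BacNav, so every Sham-NT library was shallower than every TAC-mScarlet library. When all libraries were thinned to the smallest, the same 12 of the genes followed here were called. Libraries also differed within groups in the immediate early gene Fos, which lay at 54.9 to 301 CPM (counts scaled to a common library total) in 7 libraries and at 1.60 to 7.89 CPM in the other 5. Summed markers of ventricular cardiomyocytes were present in every library, at 48960 to 86200 CPM. Markers of adipocytes were not analysed here.

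Collagen and collagen-processing genes together took 0.220 ± 0.0208% of all counts in Sham-NT (SD, n = 4), 0.405 ± 0.166% in TAC-mScarlet and 0.299 ± 0.0830% in TAC-BacNav. The share was 0.617% in TAC-mScarlet mouse 3, 0.457% in mouse 4, 0.281% in mouse 1 and 0.265% in mouse 2. TAC-BacNav mouse 1 had 0.188%, below every Sham-NT library, and its 3 group mates had 0.286 to 0.374%. The TAC-mScarlet mice therefore all lay above the highest Sham-NT share of 0.234%, while the TAC-BacNav mice spread on both sides of it. In whole ventricular tissue a change in the number of cells of a type and a change in RNA per cell cannot be told apart.

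**Figure D1:**
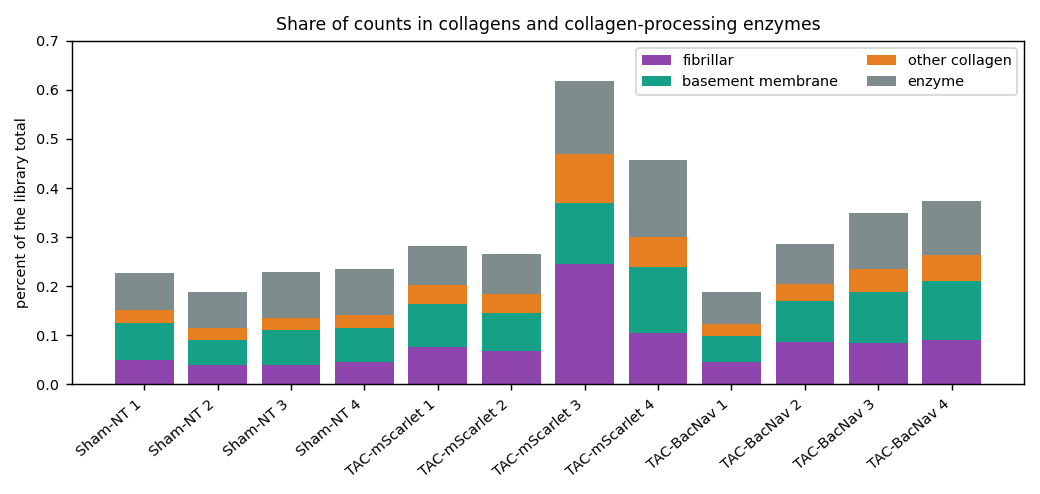
Share of each library's counts (percent, linear axis from 0) taken by fibrillar collagens, basement membrane collagens, other collagens and collagen-processing enzymes, 1 bar per mouse. TAC-mScarlet mouse 3 reached 0.617% and TAC-BacNav mouse 1 had 0.188%.

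By class, the fibrillar share averaged 0.0435 ± 0.00566% in Sham-NT, 0.124 ± 0.0827% in TAC-mScarlet and 0.0767 ± 0.0212% in TAC-BacNav. TAC-mScarlet mouse 3 alone had 0.246%, against 0.0688 to 0.105% in the other TAC-mScarlet mice. The basement membrane share averaged 0.0667 ± 0.0104%, 0.106 ± 0.0277% and 0.0900 ± 0.0289% in the same order. For the other collagens the shares were 0.0255 ± 0.00120%, 0.0589 ± 0.0284% and 0.0396 ± 0.0126%, and for the enzymes 0.0844 ± 0.0100%, 0.116 ± 0.0425% and 0.0930 ± 0.0235%.

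Per kb of exon, which allows genes to be compared, Serpinh1 was the most abundant of these transcripts in Sham-NT, at 111 ± 18.2 CPM per kb. Col4a1 followed at 44.9 ± 7.61 CPM per kb and Col4a2 at 29.9 ± 5.51 CPM per kb. P4ha1 (20.7 ± 8.91), P3h4 (18.2 ± 3.85), Col6a1 (18.0 ± 1.10) and Col3a1 (16.4 ± 2.81 CPM per kb) were neighbours whose levels did not differ beyond their spread. Col1a1 and Col1a2, the chains of collagen I, were equal within their spread at 9.34 ± 0.845 and 9.29 ± 0.551 CPM per kb. Their annotated exons cover 6563 and 12426 bases, so this equality depends on the lengths used.

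In TAC-mScarlet the order of the means per kb was different in the fibrillar and short-chain collagens. Col3a1 averaged 49.4 ± 37.4 CPM per kb, a mean above that of Col4a2 (42.5 ± 11.6), though with an SD most of its size. Mouse 3 alone made this difference, with 1028 CPM of Col3a1 against 240.3 to 392 CPM in the other TAC-mScarlet mice. In mice 1, 2 and 4 Col4a2 stayed above Col3a1 per kb, as in Sham-NT. Col8a1, at 4.62 ± 0.451 CPM per kb in Sham-NT, reached 28.7 ± 18.5 CPM per kb and lay within the spread of Col1a1 (26.7 ± 14.3) and Col1a2 (24.7 ± 14.9). Lengths are the union of annotated exons, so a gene whose main transcript is short reads too low on this scale.

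In TAC-mScarlet against Sham-NT, collagens I, VIII, XII, XIV and XVI and the alpha 2 chain of collagen IX were higher, together with the C-proteinase enhancer Pcolce2 and the prolyl 3-hydroxylase P3h2. Col11a2 and P3h4 were lower. Of the 49 genes tested, 10 rose, 2 fell and 37 did not pass an adjusted p of 0.05 (edgeR's quasi-likelihood test, Benjamini-Hochberg over 13910 genes). That share stands against 5.17% of all genes tested, 2.65% higher and 2.52% lower. The median log2 fold change of the 49 was 0.53, against 0.0044 over all genes, and 37 of the 49 were above 0, against 50.5% of all genes. All 4 TAC-mScarlet mice lay above all 4 Sham-NT mice for 18 of the 49 (6.33% of all genes) and below them for 3 (6.78% of all genes).

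Single libraries decided the count. Leaving out a control mouse gave 2 (mouse 1), 0 (mouse 2), 9 (mouse 3) and 0 (mouse 4) called genes, and where edgeR called 0, without mouse 2 or mouse 4, unadjusted p-values under 0.05 were found for 24 and 25 genes in the higher and 3 genes in the lower direction. Leaving out a TAC-mScarlet mouse gave 15, 19, 4 and 5 in the same order. The count over all genes was 256, 14, 1055 and 20 without each control mouse and 653, 630, 97 and 228 without each TAC-mScarlet mouse, so without Sham-NT 3 it rose while the count in the set fell. Leaving out 1 TAC-BacNav mouse, which enters this comparison only through the filter, the scaling and the estimate of the spread, gave 10 to 14. DESeq2 called 21 of these genes and limma-voom 7. Pcolce2, Col8a1, Col14a1 and Col1a2 passed without TAC-mScarlet 3, the mouse with the highest collagen share, and Pcolce2 passed in 6 of the 8 fits that left out 1 mouse of either group, the most of any of these genes. Col14a1 passed in 5 of those 8 fits, Col8a1 in 4 and Col1a2 in 3. Each mouse is a separate animal, so the p-values weigh group differences against a spread between animals, which was estimated over all 3 groups together.

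**Figure D2:**
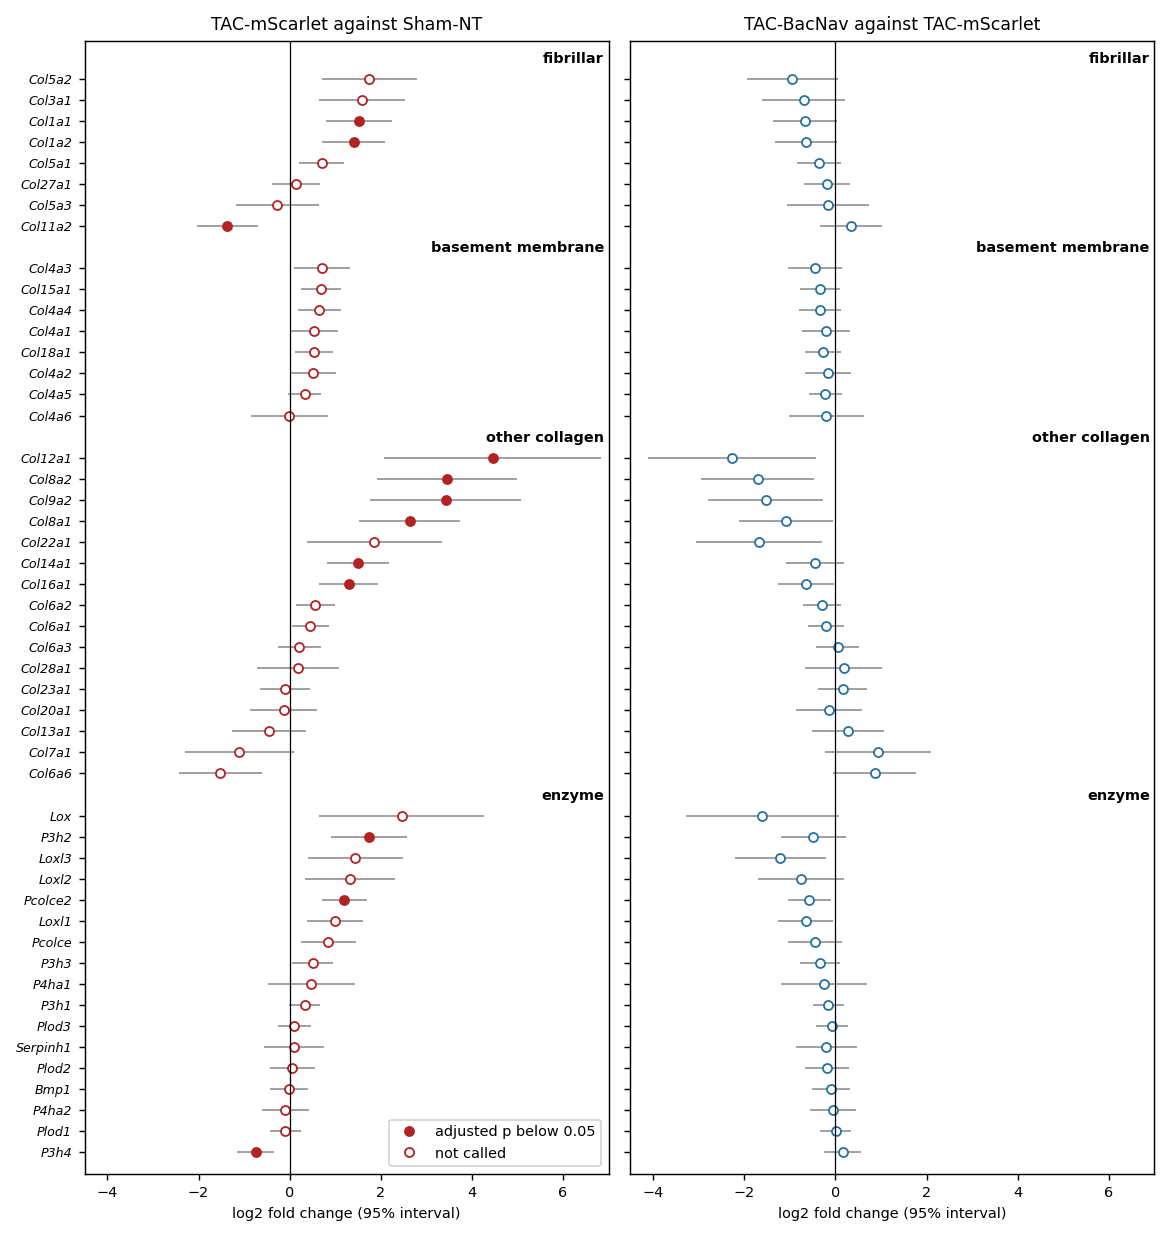
Log2 fold change (linear axis) with its 95% interval for the 49 tested genes, grouped by class, in TAC-mScarlet against Sham-NT (left) and TAC-BacNav against TAC-mScarlet (right). Filled points passed an adjusted p of 0.05: 12 on the left and none on the right.

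Among 8 fibrillar genes, Col1a1 and Col1a2 rose, Col11a2 fell and the other 5 did not pass. Their median log2 fold change was 1.06. In the values that follow, mice 1 to 4 of each group are given in order, as CPM scaled by the trimmed mean of M-values (TMM), and changes are in log2 units. Col1a1 (ENSMUSG00000001506.10, chr11:94936224-94953042, GRCm38), the alpha 1 chain of collagen I, was at 69.2, 56.6, 60.8 and 58.5 CPM in Sham-NT, 122, 97.5, 307 and 175 CPM in TAC-mScarlet and 60.7, 120.3, 129.9 and 129 CPM in TAC-BacNav. Every TAC-mScarlet mouse lay above every Sham-NT mouse, mouse 3 was highest, and TAC-BacNav mouse 1 was inside the Sham-NT range. Col1a1 rose by 1.52 ± 0.33 (SE, edgeR adjusted p = 0.0295) in log2 units in TAC-mScarlet. Its partner chain Col1a2 (ENSMUSG00000029661.16, chr6:4504814-4541544) was at 124, 117, 111 and 109.6 CPM in Sham-NT, 196, 181, 579 and 269.8 CPM in TAC-mScarlet and 133, 200.4, 217 and 233 CPM in TAC-BacNav. The TAC-mScarlet and Sham-NT mice did not overlap for Col1a2, nor did the TAC-BacNav and Sham-NT mice. Col1a2 rose by 1.41 ± 0.32 (SE, edgeR adjusted p = 0.0301), and without TAC-mScarlet 3 by 0.90 (adjusted p = 0.0399), whereas Col1a1 at 1.10 then had an adjusted p of 0.0538. Neither chain passed when any 1 Sham-NT mouse or TAC-mScarlet 4 was left out. Of the 8 fits that left out 1 mouse of either group, Col1a2 passed in 3 and Col1a1 in 2.

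Col3a1 (ENSMUSG00000026043.18, chr1:45311538-45349706), the single chain of collagen III, was at 197, 140.3, 138 and 169 CPM in Sham-NT, 281, 240.3, 1028 and 392 CPM in TAC-mScarlet and 175, 379, 304 and 338 CPM in TAC-BacNav. TAC-mScarlet mouse 3 stood far above the rest, and the TAC-mScarlet and Sham-NT mice did not overlap. With a log2 difference of 1.59 ± 0.43 (SE, edgeR adjusted p = 0.0573) the gene did not pass. DESeq2 (adjusted p = 0.00938) and limma-voom (adjusted p = 0.0492) both called it, whereas without TAC-mScarlet 3 the edgeR difference was 0.92 (adjusted p = 0.0784). Col5a1, the main chain of collagen V, which nucleates collagen I fibrils, was at 41.8, 37.1, 34.9 and 49.0 CPM in Sham-NT, 52.7, 45.8, 103 and 63.7 CPM in TAC-mScarlet and 35.9, 53.5, 60.7 and 56.6 CPM in TAC-BacNav. The groups overlapped and the difference of 0.70 ± 0.23 (SE, edgeR adjusted p = 0.0855) did not pass. Col5a2 differed by 1.74 ± 0.47 (SE, edgeR adjusted p = 0.0591) without overlap. Col27a1 and Col5a3 differed by 0.14 and -0.28 and did not pass.

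Col11a2 (ENSMUSG00000024330.17, chr17:34039437-34066685), a minor fibrillar chain best known from cartilage, went the other way. It was at 5.75, 6.44, 5.18 and 8.01 CPM in Sham-NT, 1.55, 3.40, 1.63 and 3.25 CPM in TAC-mScarlet and 2.44, 3.50, 4.14 and 2.47 CPM in TAC-BacNav. All 8 TAC mice lay below all 4 Sham-NT mice. Col11a2 fell by 1.37 ± 0.31 in log2 units (SE, edgeR adjusted p = 0.0268), and the change was -1.21 without TAC-mScarlet 3 (adjusted p = 0.0851).

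None of the 8 basement membrane genes passed in TAC-mScarlet against Sham-NT, although 7 were above 0 and the median log2 difference was 0.54. The smallest adjusted p was 0.0626, for Col15a1, and 5 of the 8 had an unadjusted p under 0.05, where 11% of all genes were higher at that level. Col4a1, the alpha 1 chain of collagen IV, was at 367, 251, 351 and 371 CPM in Sham-NT, 406, 336, 543 and 663 CPM in TAC-mScarlet and 246, 388, 488 and 564 CPM in TAC-BacNav. The TAC-mScarlet mice overlapped with Sham-NT, mouse 4 and not mouse 3 was highest, and TAC-BacNav mouse 1 was the lowest of all 12. Col4a1 differed by 0.54 ± 0.25 (SE, edgeR adjusted p = 0.214). Col4a2 was at 228, 146, 217 and 199 CPM in Sham-NT, 248, 206, 285 and 386 CPM in TAC-mScarlet and 144, 243, 293 and 327 CPM in TAC-BacNav. TAC-mScarlet mouse 4 was again the highest of the 12 and TAC-BacNav mouse 1 the lowest. Col4a2 differed by 0.51 ± 0.24 (SE, edgeR adjusted p = 0.225). With the Fos side of each library (high or low) as a factor, Col4a1 differed by 0.64 (edgeR adjusted p = 0.0387). That split was noticed in these same data, and TAC-mScarlet mouse 4 alone is on its low side in that group. The fit is therefore no separate support for Col4a1.

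Col15a1, a proteoglycan collagen of the basement membrane zone, was at 109, 91.0, 87.9 and 97.4 CPM in Sham-NT, 128, 105, 208 and 179 CPM in TAC-mScarlet and 86.1, 112, 142 and 152 CPM in TAC-BacNav. TAC-mScarlet mice 3 and 4 were high and mouse 2 lay inside the Sham-NT range. The difference was 0.69 ± 0.21 (SE, edgeR adjusted p = 0.0626), which passed with library-size scaling (0.82, adjusted p = 0.0383), with DESeq2 (0.69, adjusted p = 0.0245) and with the Fos side as a factor (0.74, adjusted p = 0.0264). Col18a1, whose C-terminal fragment is endostatin, was at 5.95, 8.39, 8.28 and 8.01 CPM in Sham-NT, 9.80, 9.40, 12.7 and 12.6 CPM in TAC-mScarlet and 7.91, 9.05, 8.27 and 11.4 CPM in TAC-BacNav. All TAC-mScarlet mice were above all Sham-NT mice, by 0.53 ± 0.19 (SE, edgeR adjusted p = 0.113), which did not pass. The collagen IV chains Col4a3, Col4a4 and Col4a5 differed by 0.71, 0.65 and 0.33 and Col4a6, a low gene at 0.800 to 2.91 CPM, by -0.0035.

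The short-chain network collagen VIII, found in vessel walls and in remodelling tissue, had both of its chains called. Col8a1 (ENSMUSG00000068196.5, chr16:57624258-57754737) was at 34.3, 34.0, 41.4 and 34.9 CPM in Sham-NT, 119.7, 122, 428 and 229 CPM in TAC-mScarlet and 46.9, 73.9, 127 and 174 CPM in TAC-BacNav. The lowest TAC-mScarlet mouse was well above the highest Sham-NT mouse, and the TAC-BacNav mice all lay above Sham-NT but overlapped with TAC-mScarlet. Col8a1 rose by 2.63 ± 0.50 (SE, edgeR adjusted p = 0.0245) and by 2.11 without TAC-mScarlet 3 (adjusted p = 0.0487). Col8a1 did not pass when Sham-NT mouse 1, 2 or 4 or TAC-mScarlet mouse 4 was left out. Col8a2 (ENSMUSG00000056174.8, chr4:126286793-126314330) was at 0.595, 0.195, 0.518 and 0.641 CPM in Sham-NT, 2.27, 1.70, 13.7 and 4.41 CPM in TAC-mScarlet and 0.814, 1.33, 3.07 and 1.64 CPM in TAC-BacNav, which in Sham-NT rests on 3, 1, 4 and 4 counts. The Sham-NT mice were all below the TAC mice of both groups. Col8a2 rose by 3.46 ± 0.73 (SE, edgeR adjusted p = 0.0236), with a 95% interval of 1.91 to 5.00, and did not pass without TAC-mScarlet 3 (2.46, adjusted p = 0.0564) or with limma-voom (2.93, adjusted p = 0.0882).

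Fibril-associated collagens, which sit on fibril surfaces, had 4 of 6 genes higher and a median log2 fold change of 1.68. Col12a1 (ENSMUSG00000032332.17, chr9:79598991-79718831), found in tissue under tension, was at 0, 0.586, 1.29 and 0.320 CPM in Sham-NT, 2.27, 3.85, 33.4 and 14.4 CPM in TAC-mScarlet and 0.814, 1.45, 5.74 and 3.29 CPM in TAC-BacNav. The Sham-NT values rest on 0, 3, 10 and 2 counts, and the 0 in mouse 1 allows up to 0.595 CPM (3 counts, counting error only). TAC-mScarlet mice 3 and 4 were far above the others. Col12a1 rose by 4.45 ± 1.08 (SE, edgeR adjusted p = 0.0416), the largest fold change of the set with a 95% interval of 2.07 to 6.83, and it did not pass without TAC-mScarlet 3 (3.47, adjusted p = 0.0851) or when the 2 groups were fitted alone (4.44, adjusted p = 0.0692).

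Col14a1 (ENSMUSG00000022371.16, chr15:55307750-55520803) was at 6.94, 7.42, 8.67 and 10.9 CPM in Sham-NT, 15.2, 15.3, 44.0 and 22.0 CPM in TAC-mScarlet and 13.1, 16.7, 17.7 and 22.9 CPM in TAC-BacNav. The Sham-NT mice were the 4 lowest of the 12. Col14a1 rose by 1.50 ± 0.32 (SE, edgeR adjusted p = 0.0245) and by 1.03 without TAC-mScarlet 3 (adjusted p = 0.0481). Col14a1 did not pass when Sham-NT mouse 1, 2 or 4 was left out. Col16a1 (ENSMUSG00000040690.15, chr4:130047840-130099283) was at 10.1, 8.00, 6.60 and 9.45 CPM in Sham-NT, 14.5, 15.5, 35.4 and 18.2 CPM in TAC-mScarlet and 7.67, 14.00, 18.0 and 13.7 CPM in TAC-BacNav. TAC-mScarlet did not overlap with Sham-NT and TAC-BacNav overlapped with both. Col16a1 rose by 1.30 ± 0.30 (SE, edgeR adjusted p = 0.0295), and the 0.92 left without TAC-mScarlet 3 did not pass (adjusted p = 0.0836).

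Col9a2 (ENSMUSG00000028626.5, chr4:121039385-121055322), a chain of the cartilage collagen IX, was at 0.198, 0.195, 0.388 and 0.160 CPM in Sham-NT, 1.91, 1.81, 5.18 and 2.20 CPM in TAC-mScarlet and 0.233, 0.241, 2.67 and 0.822 CPM in TAC-BacNav. Its Sham-NT values rest on 1, 1, 3 and 1 counts, and its TAC-mScarlet values on 16, 16, 54 and 19. TAC-BacNav mice 1 and 2 lay among the Sham-NT mice and mouse 3 within TAC-mScarlet. Col9a2 rose by 3.43 ± 0.78 (SE, edgeR adjusted p = 0.0265) with a 95% interval of 1.77 to 5.09, and did not pass without TAC-mScarlet 3 (2.92, adjusted p = 0.0853). Col22a1, a collagen of tissue junctions, was at 0.198, 0.976, 0.518 and 2.24 CPM in Sham-NT, 1.43, 0.906, 8.91 and 3.13 CPM in TAC-mScarlet and 0.930, 0.845, 1.60 and 1.15 CPM in TAC-BacNav. TAC-mScarlet mouse 3 was highest and the groups overlapped, and the difference of 1.86 ± 0.70 (SE, edgeR adjusted p = 0.13) did not pass and was 0.86 without TAC-mScarlet 3 (adjusted p = 0.508). Of the cartilage and valve markers, Sox9 was higher in TAC-mScarlet (1.86, edgeR adjusted p = 0.0302). Fmod (1.82) and Cnmd (-1.26, the opposite direction) did not pass, and Acan and Chad were not analysed here. The summed level of the 3 was 4.81 to 18.7 CPM in Sham-NT, 17.2 to 80.9 CPM in TAC-mScarlet and 12.5 to 25.7 CPM in TAC-BacNav, and their part in the Col9a2 result was not tested.

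None of the 4 microfibrillar collagen VI genes passed. Col6a1 was at 79.3, 80.6, 71.8 and 83.0 CPM in Sham-NT, 86.9, 81.9, 149 and 113 CPM in TAC-mScarlet and 65.2, 88.9, 114 and 103 CPM in TAC-BacNav. The TAC-mScarlet range began inside that of Sham-NT, and the difference was 0.46 ± 0.19 (SE, edgeR adjusted p = 0.169). Col6a2 and Col6a3 differed by 0.56 and 0.21, and Col6a6 by -1.52 ± 0.43 (SE, edgeR adjusted p = 0.055) with all TAC-mScarlet mice below all Sham-NT mice. The transmembrane collagens Col13a1 and Col23a1 and the remaining Col7a1, Col28a1 and Col20a1 did not pass, with log2 differences of -0.45, -0.10, -1.10, 0.18 and -0.13.

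**Figure D3:**
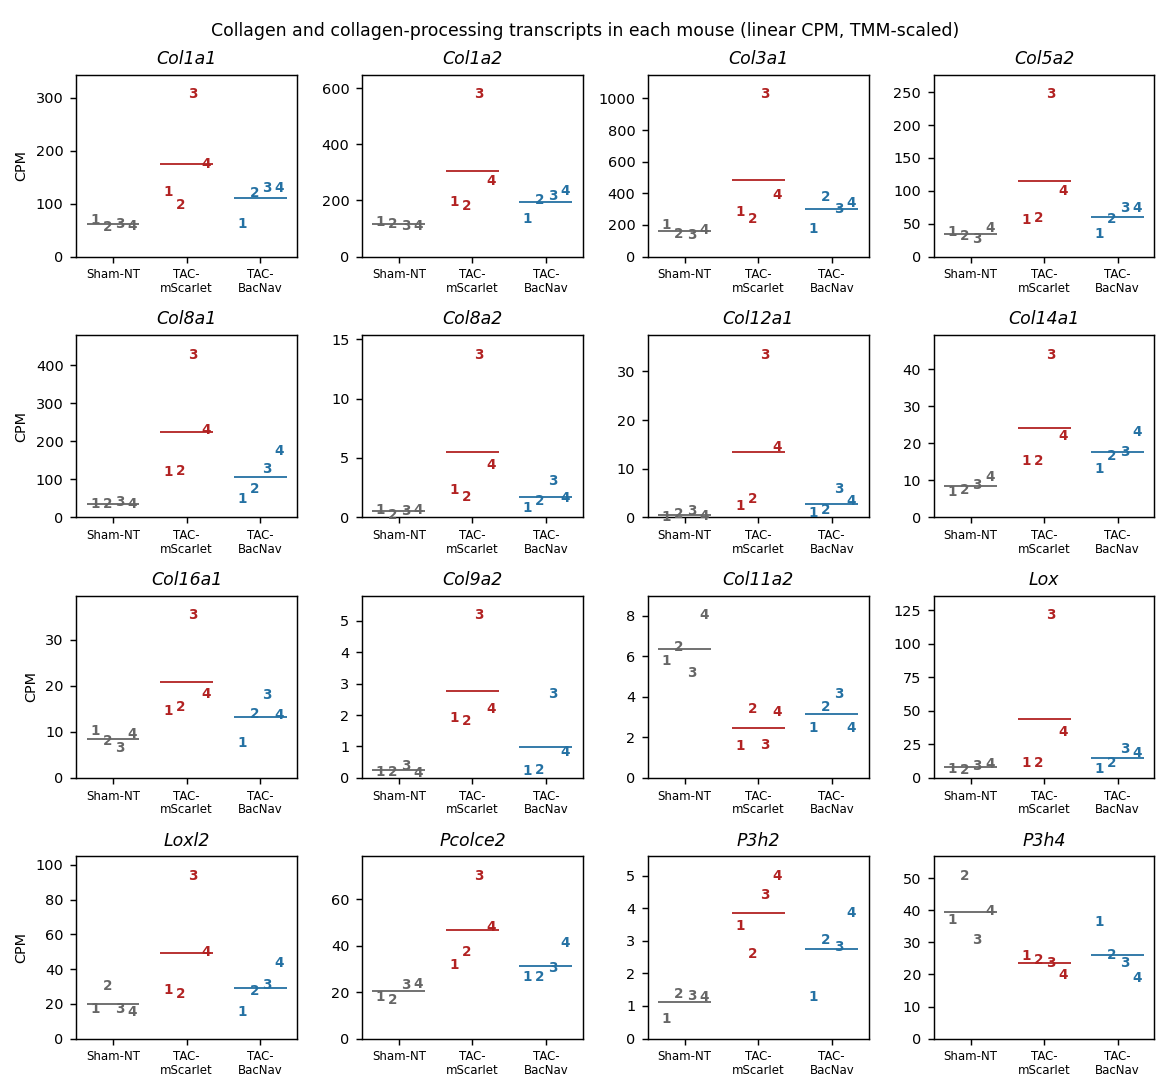
CPM (TMM-scaled, linear axes from 0) of 16 genes in each mouse, where digits are mouse numbers and lines are group means. TAC-mScarlet mouse 3 was the highest of its group in every panel but those of Col11a2, P3h2 and P3h4, and Col11a2 and P3h4 were highest in Sham-NT.

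Among the enzymes 2 of 17 rose and 1 fell, with a median log2 fold change of 0.48. Of the 9 genes of the hydroxylase families, P3h2 rose and P3h4 fell. P3h2 (ENSMUSG00000038168.5, chr16:25959288-26105784), a prolyl 3-hydroxylase, was at 0.595, 1.37, 1.29 and 1.28 CPM in Sham-NT, 3.46, 2.60, 4.41 and 4.99 CPM in TAC-mScarlet and 1.28, 3.02, 2.80 and 3.86 CPM in TAC-BacNav. TAC-mScarlet lay above Sham-NT without overlap and TAC-BacNav mouse 1 lay inside the Sham-NT range. P3h2 rose by 1.74 ± 0.39 (SE, edgeR adjusted p = 0.0258), from 3, 7, 10 and 8 counts in Sham-NT, and did not pass without TAC-mScarlet 3 (1.66, adjusted p = 0.0784). Its exons share 1055 bases with a gene on the other strand, Gm4524, and the reads of the pair cannot be told apart without a stated strand setting. P3h4 (ENSMUSG00000006931.15, chr11:100408456-100414836), a scaffold of the lysyl hydroxylase complex, was at 37.1, 50.8, 30.7 and 39.7 CPM in Sham-NT, 25.8, 24.5, 23.7 and 19.9 CPM in TAC-mScarlet and 36.3, 26.1, 23.6 and 18.8 CPM in TAC-BacNav. Sham-NT lay above TAC-mScarlet without overlap, and TAC-BacNav mouse 1 was inside the Sham-NT range. P3h4 fell by 0.75 ± 0.19 in log2 units (SE, edgeR adjusted p = 0.0368) and did not pass without TAC-mScarlet 3 (-0.75, adjusted p = 0.0960).

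Pcolce2 (ENSMUSG00000015354.8, chr9:95637601-95698096), which speeds removal of the C-propeptide of fibrillar procollagens, was at 17.8, 16.6, 23.2 and 23.6 CPM in Sham-NT, 31.7, 37.4, 69.96 and 48.0 CPM in TAC-mScarlet and 26.4, 26.7, 30.6 and 41.3 CPM in TAC-BacNav. All TAC mice of both groups were above all Sham-NT mice. Pcolce2 rose by 1.20 ± 0.23 (SE, edgeR adjusted p = 0.0204), the smallest adjusted p of the set, and by 0.93 without TAC-mScarlet 3 (adjusted p = 0.0464). Its relative Pcolce was at 60.5, 59.9, 57.8 and 57.2 CPM in Sham-NT, 72.4, 64.2, 171 and 116 CPM in TAC-mScarlet and 55.7, 63.1, 108 and 82.8 CPM in TAC-BacNav. TAC-mScarlet did not overlap with Sham-NT, and the difference of 0.85 ± 0.28 (SE, edgeR adjusted p = 0.0937) did not pass. Bmp1, the proteinase whose cleavage of procollagen they enhance, was at 62.2, 57.6, 39.1 and 67.3 CPM in Sham-NT, 49.1, 49.2, 68.6 and 57.8 CPM in TAC-mScarlet and 43.1, 48.8, 74.6 and 43.4 CPM in TAC-BacNav. The groups overlapped throughout and the difference was -0.0062 ± 0.20 (SE, edgeR adjusted p = 0.99), with a sign that changed under several settings.

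All 4 tested lysyl oxidases were above 0, with log2 differences of 2.46 for Lox, 1.00 for Loxl1, 1.33 for Loxl2 and 1.44 for Loxl3, and none passed (adjusted p from 0.0585 to 0.110). Lox, which cross-links collagen and elastin, was at 6.74, 6.05, 9.06 and 10.1 CPM in Sham-NT, 10.8, 10.9, 121 and 34.1 CPM in TAC-mScarlet and 6.86, 11.3, 21.7 and 18.5 CPM in TAC-BacNav. TAC-mScarlet mouse 3 stood above all others and mice 1 and 2 lay just above the Sham-NT range. Its 95% interval ran from 0.65 to 4.27, and DESeq2 called it (2.47, adjusted p = 0.0147), whereas without TAC-mScarlet 3 the edgeR difference was 1.20 (adjusted p = 0.229). Loxl2 was at 16.9, 30.1, 16.8 and 15.2 CPM in Sham-NT, 28.1, 25.5, 93.5 and 49.8 CPM in TAC-mScarlet and 15.3, 27.4, 30.7 and 43.6 CPM in TAC-BacNav. Sham-NT mouse 2 lay within the TAC-mScarlet range and TAC-mScarlet mouse 3 was again highest. Loxl3 shares 535 exon bases with Htra2 on the other strand. Loxl4, which was not tested, held 0, 6, 1 and 7 counts in Sham-NT, 8, 6, 26 and 10 in TAC-mScarlet and 2, 1, 1 and 17 in TAC-BacNav.

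The chaperone and the other 7 genes of the hydroxylase families did not pass. Serpinh1 was at 231, 233, 303 and 314 CPM in Sham-NT, 176, 185, 267 and 521 CPM in TAC-mScarlet and 174, 228, 309 and 290.0 CPM in TAC-BacNav. TAC-mScarlet spread from below to above the Sham-NT range, and the difference was 0.089 ± 0.31 (SE, edgeR adjusted p = 0.905), with a 95% interval of -0.57 to 0.75 and a sign that changed with limma-voom (-0.040) and without TAC-mScarlet 4 (-0.37). P4ha1, the catalytic subunit of the main prolyl 4-hydroxylase, was at 54.3, 55.8, 129 and 101 CPM in Sham-NT, 79.0, 70.8, 106 and 221 CPM in TAC-mScarlet and 57.4, 82.1, 123 and 139 CPM in TAC-BacNav. The groups overlapped, and it differed by 0.48 ± 0.43 (SE, edgeR adjusted p = 0.572). Plod2, which hydroxylates telopeptide lysines for cross-links, was at 54.3, 51.7, 46.6 and 53.4 CPM in Sham-NT, 37.2, 45.6, 66.5 and 64.6 CPM in TAC-mScarlet and 33.2, 31.7, 62.8 and 60.5 CPM in TAC-BacNav. Plod2 differed by 0.057 ± 0.23 (SE, edgeR adjusted p = 0.921), with a 95% interval of -0.44 to 0.55. P4ha2, Plod1, Plod3, P3h1 and P3h3 differed by -0.092, -0.10, 0.10, 0.33 and 0.50 and did not pass.

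Serpinh1, P4ha1, P4ha2 and Plod1 differed between libraries with low and with high Fos in all 3 groups, where the low side of TAC-mScarlet is mouse 4 alone. In each group, every library with Fos under 20 CPM was higher for these genes than every library with Fos over 20 CPM. Serpinh1 ran from 173.7 to 267 CPM in the 7 Fos-high libraries and from 290.0 to 521 CPM in the 5 Fos-low libraries. Plod1 ran from 74.3 to 85.05 CPM against 97.6 to 122 CPM, and P4ha2 from 49.8 to 69.8 CPM against 80.5 to 106 CPM, so neither range overlapped. P4ha1 ran from 54.3 to 106 CPM against 101 to 221 CPM. Such a split in all 3 groups was seen in 4 of 49 genes in this direction and in none in the other, against 3.77% and 3.95% of all genes, so little is read from the count. Within the high side the order of libraries by Serpinh1 was not their order by Fos. With the Fos side as a factor, P4ha1 was higher by 0.72 after constriction with mScarlet (edgeR adjusted p = 0.00966). In that fit 18 of the genes followed here and 1459 of all 13910 genes were called. P4ha1 splits by Fos side in these same libraries, so its adjusted p there is no separate support. Without the factor, its difference was -0.0081 when TAC-mScarlet mouse 4 was left out. Mice 1 and 2 were on the high side and mouse 4 on the low side in all 3 groups, so the split partly follows mouse number. The split was noticed in these data, and what it reflects was not tested. Calls of other genes with the Fos side as a factor, such as Col15a1, are likewise no separate support.

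**Figure D4:**
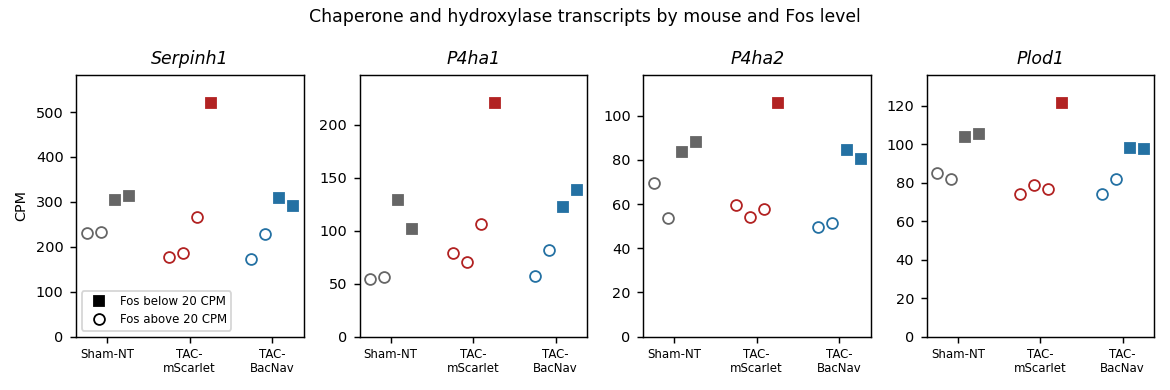
CPM (TMM-scaled, linear axes from 0) of Serpinh1, P4ha1, P4ha2 and Plod1 in each mouse, filled squares for libraries with Fos below 20 CPM and open circles for those above it. Within every group the squares lie above the circles, and Serpinh1 peaks at 521 CPM in TAC-mScarlet mouse 4.

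Ratios of 2 genes within a library do not depend on the scaling between libraries. The log2 ratio of Col4a1 to Col1a1 per kb averaged 2.25 ± 0.22 in Sham-NT (SD, n = 4), 1.38 ± 0.50 in TAC-mScarlet and 1.75 ± 0.19 in TAC-BacNav. Every TAC mouse had a lower ratio than every Sham-NT mouse. Relative to Sham-NT the ratio differed by -0.87 with mScarlet and by -0.50 with BacNav, each with an exact two-sided permutation p of 0.0286, the smallest that 4 against 4 mice can give. Serpinh1 to Col1a1 averaged 3.56 ± 0.31, 2.13 ± 0.74 and 2.64 ± 0.25 in the same order and again did not overlap between TAC and Sham-NT mice (-1.42 and -0.92, exact permutation p = 0.0286 each). Adjusted over the 21 ratio comparisons, the exact permutation p of these 4 differences was 0.15, so none passed. With only 4 comparisons at the floor of 0.0286, an adjusted p under 0.05 could not be reached however wide the gap. The adjusted test therefore cannot decide on these 4 differences.

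The chains of 1 collagen kept close to a fixed ratio, and Col3a1 to Col1a1, from 2 collagens, was about as steady as Col1a1 to Col1a2. Col1a1 to Col1a2 per kb lay between 0.862 and 1.23 in all 12 libraries, and Col4a2 to Col4a1 between 0.591 and 0.707. The level of each ratio depends on the exon lengths used, whereas its log2 spread between libraries does not. Col3a1 to Col1a1 lay between 1.49 and 2.24 and Col5a2 to Col1a1 between 0.301 and 0.551. Lox to Col1a1 spread more widely, from 0.121 to 0.542, with TAC-mScarlet mouse 3 highest. Differences of these 5 ratios between groups were at most 0.39 in log2 units, with an exact permutation p of 0.257 or more in every comparison.

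**Figure D5:**
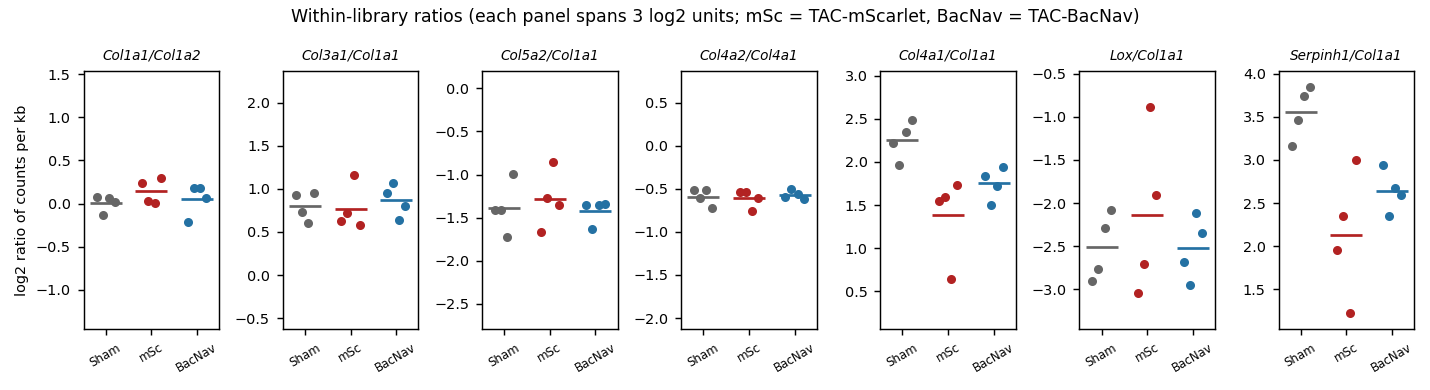
Log2 ratio of counts per kb for 7 pairs of genes, 1 point per mouse and lines for group means, with 3 log2 units on every vertical axis. Col4a1 to Col1a1 and Serpinh1 to Col1a1 are lower in all 8 TAC mice than in all 4 Sham-NT mice.

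In TAC-BacNav against TAC-mScarlet, most collagen genes had lower means with BacNav, but none was called by the 3 tests that follow. edgeR called none of the 49 genes and 0 of 13910 genes overall (0% of all genes tested), limma-voom also called 0 genes, and DESeq2 called 5 genes, none of them followed here. At an unadjusted p under 0.05 there were 467 genes (3.36%), and 9 of the 49 were among the lower ones (1.98% of all genes). Of the 49, 40 were below 0, with a median log2 difference of -0.27 against 0.0036 over all genes. No collagen or enzyme gene separated the groups without overlap, as 0.935% of all genes did with lower and 0.762% with higher values. The same 4 TAC-mScarlet mice enter this comparison and the previous one, so the 2 are not independent.

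The 5 smallest p-values belonged to Col8a2, Pcolce2, Col9a2, Col22a1 and Col12a1. Col8a2 had a log2 difference of -1.71 ± 0.58 (SE), Pcolce2 of -0.58 ± 0.22 (SE), Col9a2 of -1.53 ± 0.59 (SE), Col22a1 of -1.68 ± 0.65 (SE) and Col12a1 of -2.27 ± 0.84 (SE), each with an edgeR adjusted p of 0.9995. In every one of these genes TAC-mScarlet mouse 3 was the highest of the 12 mice. For collagen I the 95% interval was -1.38 to 0.034 for Col1a1 and -1.32 to 0.031 for Col1a2 in log2 units, and for Col3a1 it was -1.62 to 0.22. Each interval holds both 0 and -1, so the data do not show that the groups were alike. Serpinh1 (-0.20) and Bmp1 (-0.10) had small differences, and Col11a2 and Col6a6 had means above those of TAC-mScarlet (0.34 and 0.86).

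By class, the median log2 difference was -0.50 in the fibrillar, -0.25 in the basement membrane and -0.25 in the other collagens and -0.25 in the enzymes. Without TAC-mScarlet 3 the medians were -0.048, -0.15, -0.074 and -0.14, and none of the 50 genes then tested had an unadjusted p under 0.05. Without TAC-BacNav 1 they were -0.35, -0.20, -0.15 and -0.074, with 2 genes lower and 1 higher at that level. Those 2 mice stood at the ends of most distributions: TAC-mScarlet 3 was the highest of 12 for 27 of the 49 genes (15.1% of all genes) and TAC-BacNav 1 the lowest of the 8 TAC mice for 33 (15% of all genes).

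In TAC-BacNav against Sham-NT, no collagen or enzyme gene passed (0.0144% of all genes did, 2 genes). The mice did not overlap for 5 genes that were higher, Pcolce2, Col1a2, Col14a1, Col8a1 and Col8a2 (3.08% of all genes), and for 1 that was lower, Col11a2 (2.37% of all genes). Col14a1 had a log2 difference of 1.05 ± 0.32 (SE, edgeR adjusted p = 0.367), Col8a1 of 1.54 ± 0.49 (SE, edgeR adjusted p = 0.367) and Col11a2 of -1.02 ± 0.31 (SE, edgeR adjusted p = 0.367). At an unadjusted p under 0.05, 8 of the 49 were higher and 2 were lower, against 5.79% and 5.31% of all genes. The median was 0.26 over the 49, 0.55 over the fibrillar and 0.29 over the basement membrane genes. This comparison shares its controls with the first one and its treated mice with the second.

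Of 60 tested partner genes of collagen folding, export, trimming, binding and breakdown, 6 (10%) rose in TAC-mScarlet against Sham-NT and none fell, against 2.65% and 2.52% of all genes. They were the small leucine-rich proteoglycans Bgn (1.69 ± 0.30 (SE, edgeR adjusted p = 0.0179)), Lum (1.16 ± 0.24 (SE, edgeR adjusted p = 0.0236)) and Prelp (1.23 ± 0.21 (SE, edgeR adjusted p = 0.015)), which bind fibrils, the collagen receptor subunit Itga11 (1.16 ± 0.29 (SE, edgeR adjusted p = 0.0365)), the N-proteinase Adamts2 (1.08 ± 0.29 (SE, edgeR adjusted p = 0.0454)) and the collagen-degrading protease Ctsk (1.26 ± 0.32 (SE, edgeR adjusted p = 0.0377)). None of the 13 folding and modification partners passed, and neither did any of 9 export genes, with medians of 0.22 and 0.025. The endoplasmic reticulum chaperone Hspa5 differed by -0.49 ± 0.15 (SE, edgeR adjusted p = 0.0678). No partner passed in either comparison of TAC-BacNav.

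Markers of other cells moved with these results. Of the 5 tested activated fibroblast markers, Postn, Meox1 and Cilp rose in TAC-mScarlet. Comp (log2 difference 4.71) and Fap (-0.24, the opposite direction) did not pass. The summed list ran from 73.2 to 89.4 CPM in Sham-NT, 347 to 2800 CPM in TAC-mScarlet and 98.9 to 496 CPM in TAC-BacNav. TAC-mScarlet mouse 3 was its highest and TAC-BacNav mouse 1 the lowest of the 8 TAC mice, as for most of the collagen genes. General fibroblast markers, of which 1 of 7 rose, summed to 2358 to 3111, 3111 to 4912 and 2828 to 3451 CPM. Of 5 macrophage markers 3 rose (156.5 to 221, 229.8 to 384 and 232 to 259 CPM), and of 7 cardiomyocyte markers 3 fell (76870 to 86200, 48960 to 64580 and 58050 to 78510 CPM). No endothelial, smooth muscle or mesothelial marker passed. The part of these markers in the collagen results was not tested.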

How the data were processed

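RNA from the ventricles of 12 mice was sequenced in bulk, 4 mice in each of 3 groups, and grouped by the sample labels. The deposited values are whole-number read counts per gene, 1 table per mouse. HISAT2, featureCounts and the build GRCh38 are named in the submitters' processing notes, without versions, whereas the gene identifiers are mouse Ensembl identifiers, of which 14946 of 14957 matched GENCODE vM21 on GRCm38 without their version, and names and coordinates are taken from there. No source used here states the strand setting, and no gene in the tables has fewer than 30 counts in total.

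Counts were fitted for all 12 libraries together with edgeR 4.0.16 in R 4.3.3 (TMM scaling, filterByExpr by group, robust quasi-likelihood test). The filter removed 1047 genes and left 13910, over which p-values were adjusted by Benjamini and Hochberg, and genes were called at 0.05. CPM are TMM-scaled, and levels per kb use the union of exons. Total counts of 5360869 to 11497836 per library set the counting error. Ratios within libraries were compared by exact permutation tests. The model was tested on simulated data. The alternatives were DESeq2 1.42.0, limma-voom (limma 3.58.1), other scalings and filters, the 2 groups alone, the mouse number as a block, the Fos side as a factor, thinned counts and leaving out each mouse.

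Values in every mouse are given for genes called in any comparison, for 16 anchor genes of the main classes, and for the 5 with the smallest p in TAC-BacNav against TAC-mScarlet. Up to 4 called partner genes are named per role and direction. Any other gene of the set may be named with its log2 difference. The genes, lists and the Fos split were chosen with earlier results of these data known. The mouse numbers were not used to pair the samples in the main fit.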

Additional observations from a re-analysis of the deposited data

Results flagged for a closer look

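In 8 of 81 groups of 4 mice, 1 mouse stood apart from the other 3 by a gap that takes most of the group's range (Dixon's test at 95%). Chance alone marks about 1 in 20 such groups. In Sham-NT, Col8a1 was 41.4 CPM in mouse 3 against 34.0 to 34.9 CPM in the others, and Col4a1 was 251 CPM in mouse 2 against 351 to 371 CPM. Loxl2 was 30.1 CPM in Sham-NT mouse 2 against 15.2 to 16.9 CPM. Col18a1 was 5.95 CPM in Sham-NT mouse 1 against 8.01 to 8.39 CPM, and P3h2 was 0.595 CPM in the same mouse against 1.28 to 1.37 CPM. Col9a2 was 0.388 CPM in Sham-NT mouse 3 against 0.160 to 0.198 CPM, a difference of 3 counts against 1. In TAC-mScarlet, Col9a2 was 5.18 CPM in mouse 3 against 1.81 to 2.20 CPM. In TAC-BacNav, Col1a1 was 60.7 CPM in mouse 1 against 120.3 to 129.9 CPM.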

How the results depend on the processing

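The 12 genes called in TAC-mScarlet against Sham-NT kept their direction in every fit of that comparison, but the number called did not hold. DESeq2 called 21 and limma-voom 7 of these genes, with 1371 and 475 of all genes and 16 and 3 of the partner genes. Library-size scaling called 10 partner genes. The Fos side as a factor called 1459 genes and 11 partner genes. Between the vectors DESeq2 called 5 genes and the fit of the 2 groups alone 1. For BacNav against sham mice these fits called 38 and 1 genes, and the Fos side as a factor 8. Leaving out 1 mouse moved the calls for mScarlet against sham mice from 14 to 1055 over all genes, from 0 to 19 in the set and from 0 to 11 in the partners. For all genes the range was 0 to 15 for BacNav against sham mice and 0 to 1 between the vectors.

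The mouse numbers were not used as a pairing of animals in the main fit. Same-numbered mice had correlations of deviations from -0.318 to 0.414, 8 of 12 over 0.1. Of 12 libraries, 6 correlated best with their own number. Mice 1 and 2 had high Fos and mouse 4 had low Fos in all 3 groups. Whether the numbers mark a shared block was not tested. With the mouse number as a replicate block 17 genes of the set were called for mScarlet against sham mice. Between the vectors the block called 6 genes, 1 of them in the set (Col12a1, -2.01, edgeR adjusted p = 0.0350), and for BacNav against sham mice 12 genes.

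Some differences that were not called changed sign, most of them near 0, and the cause was not tested. Not near 0 were P4ha1 for mScarlet against sham mice (0.48), Col14a1 between the vectors (-0.45) and the Lox/Col1a1 ratio in both (0.37 and -0.39). For mScarlet against sham mice, Bmp1 was 0.13 with library-size scaling, 0.019 with limma-voom, 0.013 with the Fos side and 0.017 with thinned counts, and Serpinh1 was -0.040 with limma-voom and -0.023 with the replicate block. Leaving out 1 mouse gave ranges in that comparison of -0.15 to 0.089 for Bmp1, -0.37 to 0.26 for Serpinh1, -0.0081 to 0.75 for P4ha1 and -0.069 to 0.20 for Plod2. Between the vectors the ranges were -0.31 to 0.0092 for Bmp1, -0.62 to 0.017 for Col14a1, -0.31 to 0.036 for Col4a2, -0.044 to 0.29 for P3h4, -0.45 to 0.23 for P4ha1 and -0.37 to 0.26 for Serpinh1. For BacNav against sham mice they were -0.12 to 0.99 for Col22a1, -0.29 to 0.021 for Plod2 and -0.22 to 0.029 for Serpinh1. Ratios within a library also changed sign when 1 mouse was left out. For mScarlet against sham mice the ranges were -0.16 to 0.032 for Col3a1/Col1a1, -0.063 to 0.033 for Col4a2/Col4a1, -0.043 to 0.68 for Lox/Col1a1 and -0.04 to 0.23 for Col5a2/Col1a1. For BacNav against sham mice they were -0.0031 to 0.14 for Col3a1/Col1a1, -0.14 to 0.10 for Col5a2/Col1a1, -0.022 to 0.050 for Col4a2/Col4a1 and -0.15 to 0.13 for Lox/Col1a1. Between the vectors they were -0.13 to 0.0025 for Col1a1/Col1a2, -0.26 to 0.011 for Col5a2/Col1a1, -0.0097 to 0.066 for Col4a2/Col4a1 and -0.69 to 0.026 for Lox/Col1a1.

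Depth limits the low genes: Col12a1, Col9a2, Col8a2 and P3h2 rest on 10 or fewer counts in every Sham-NT library. With 4 mice a group, the exact permutation test cannot give a p under 0.0286.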

Other observations

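Some collagens that did not pass had lower means in TAC-mScarlet than in Sham-NT. Col6a6, a collagen VI chain, was at 11.5, 16.2, 8.93 and 16.3 CPM in Sham-NT, 4.90, 8.27, 3.16 and 2.09 CPM in TAC-mScarlet and 12.0, 12.3, 3.87 and 5.34 CPM in TAC-BacNav. Its TAC-mScarlet mice all lay below its Sham-NT mice, and TAC-BacNav mice 1 and 2 lay within the Sham-NT range. The difference in TAC-mScarlet of -1.52 ± 0.43 (SE, edgeR adjusted p = 0.055) did not pass, but it did with DESeq2, with the 2 groups fitted alone, with the mouse number as a block and with the Fos side as a factor. Col7a1, the anchoring fibril collagen, and the transmembrane Col13a1 had log2 differences of -1.10 and -0.45 in TAC-mScarlet against Sham-NT and did not pass. In TAC-BacNav, Col7a1 ran from 0.698 to 3.74 CPM, with mouse 3 the highest of the 12.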
